A study of Mus musculus with 2 samples.

Results

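The miR-130 and miR-301 family is a group of microRNAs that share 1 seed, the bases near the 5′ end by which a microRNA recognises its targets. Its members here are the 4 hairpin loci with the GENCODE mouse symbols Mir130a, Mir130b, Mir301 and Mir301b, found by symbol. The symbol rule used no measured value, but the members were chosen with earlier results of these data known. All 4 have a row among the 1973 loci of the tables, and all 4 had counts in both libraries. The data come from microRNA sequencing of RNA under 30 nt from midbrain of mouse embryos of the B6NCrl strain at day 13.5, healthy, with tissue of males and females pooled. There is 1 group of 2 biological replicates, 1 library each, so no contrast of tissues, ages or treatments can be drawn. Both samples carry 1 donor record, and nothing in the labels says how far the pooled embryos were independent.

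A microRNA is cut from a hairpin transcript and loaded into an Argonaute protein, where its seed (bases 2 to 8 of the mature sequence) pairs with messenger RNAs and lowers their output. MicroRNAs with the same seed can repress the same messages. The family is known for its part in the growth of blood vessels, where miR-130a represses the anti-angiogenic homeobox genes Gax and Hoxa5, and in repression of Pparg, a nuclear receptor of fat cells and the vessel wall.

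The mature sequences of the 3p arm carry the family's seed, shown in capitals, in the RefSeq microRNA table (build GRCm38.p6). The table held this arm for 3 of the 4 members:
miR-130a-3p: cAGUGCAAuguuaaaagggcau
miR-130b-3p: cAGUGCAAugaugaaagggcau
miR-301a-3p: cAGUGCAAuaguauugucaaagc
The entry for the 3p arm of Mir301b is missing from the table. The 3 sequences begin with the same 9 bases and part company after them. Counted from 1 at the 5′ end, miR-130b-3p differs from miR-130a-3p at 2 of 22 positions, U11A and A13G. The 5p arms were in the table for all 4 members. They carry 3 different seeds, none of them the family's, and all 4 end with the same 5 bases.

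Mir130b and Mir301b lie next to each other, and their hairpins are shown to compare the sequences of neighbouring members. Both hairpins hold the heptamer AGUGCAA, in capitals, 1 time, on the 3′ side of the hairpin:
Mir130b hairpin: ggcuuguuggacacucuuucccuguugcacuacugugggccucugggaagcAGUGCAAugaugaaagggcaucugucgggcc
Mir301b hairpin: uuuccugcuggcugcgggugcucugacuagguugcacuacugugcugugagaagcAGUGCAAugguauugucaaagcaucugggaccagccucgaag
The longest run these 2 hairpins share is 14 bases. Mir301b is closer to the Mir301 hairpin on another chromosome, with which it shares a run of 16 bases. A 23-base stretch of the Mir301b hairpin matches miR-301a-3p except at 1 position, A10G counted on miR-301a-3p. The same comparison of miR-301a-3p with the Mir130a and Mir130b hairpins left 10 and 11 differences. None of the 4 hairpins shares a run of 20 bases with any of 2201 other annotated microRNA hairpins, and the longest was 17 bases, between Mir130a and Mir6389. This search took unbroken runs only, so near matches such as that of Mir301b to miR-301a-3p do not count in it. How reads were divided between Mir301 and Mir301b was not tested. Multimapping reads enter no locus count, and their loci of origin are not recorded.

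The 4 loci occupy 3 places in the genome (mm10). Mir130a (ENSMUSG00000065484.1) lies at chr2:84741115-84741178 on the minus strand, between genes, with no host on either strand. The nearest gene body is Gm19426, 990 bases upstream. Mir301 (ENSMUSG00000065589.1) lies at chr11:87113004-87113089 on the plus strand, in an intron of Ska2, which encodes a subunit of the spindle and kinetochore complex. Mir130b (ENSMUSG00000065572.1) at chr16:17124061-17124142 and Mir301b (ENSMUSG00000076288.1) at chr16:17124400-17124496 lie on the minus strand with 257 bases between them. Both are in an intron of the protein-coding gene 2610318N02Rik, of whose 8 annotated transcripts 3 span them and none overlaps them with an exon. No other annotated microRNA on the same strand lies within 10 kb of a member.

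Libraries held 5093743 and 2935841 counts on the strand of the gene in replicates 1 and 2, and values are given as CPM, the count scaled to the library total. Multimapping reads were 34.4% and 37.7% of all reads. Intervals cover counting error only, since they were computed from the counts with no term for spread between replicates. The counts carry no molecular identifiers, so repeat reads of 1 molecule cannot be told apart. The labelled tissue was checked against microRNA markers: of 11 loci listed for neural progenitors and neurons, 10 had a row and all 10 had counts, 2.96% and 2.76% of each library in sum. Most of this sum came from Mir135b, Mir92b and Mir137. Mir124a-1, Mir124a-2 and Mir124a-3, the classical neuronal loci, stood at means of 2.37, 9.31 and 1.64 CPM. Mir9-2 stood at 2.08 CPM and Mir9-3 at 377 CPM, and Mir218-1 and Mir218-2 at 20.8 and 43.9 CPM. Reads that fit more than 1 of these loci would be multimapping and enter none of the counts. How many there were was not tested, so a low locus count does not show that a microRNA was scarce.

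The family held a large share of the midbrain's counted microRNA, most of it from Mir130a and Mir130b. Its 4 loci summed to 237430 counts in replicate 1 and 145466 in replicate 2. This was 4.66% of the first library (95% exact Clopper-Pearson interval 4.64 to 4.68) and 4.95% of the second (4.93 to 4.98), with a mean of 4.81% ± 0.208 (SD, n = 2). With multimapping reads in the denominator only, the mean share was 2.65%, and the mean levels of Mir130a, Mir130b, Mir301 and Mir301b were then 19664, 4846, 1833 and 125 CPM. These values count no multimapping read as coming from the 4 loci, which was not tested. The intervals of the 2 libraries do not overlap. In bulk tissue, a level set by the number of cells of a type and one set by the RNA per cell cannot be told apart.

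Mir130a, the intergenic member, was the most abundant. It had 176853 counts in replicate 1 and 107791 in replicate 2, or 34720 and 36716 CPM. The mean was 35718 ± 1411 CPM (SD, n = 2), and the locus ranked 6 of all 1973 in both libraries. It supplied 74.5% of the family's counts in replicate 1 and 74.1% in replicate 2, so the make-up of the family was led by the same locus to nearly the same degree in both.

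Mir130b, a locus of the pair on chromosome 16, had 41867 and 27627 counts, or 8219 and 9410 CPM. Its mean was 8815 ± 842 CPM (SD, n = 2), at rank 25 in replicate 1 and rank 21 in replicate 2. It made up 17.6% and 19.0% of the family's counts. Of the members, it had the largest spread between the replicates relative to its level, with a coefficient of variation of 9.55%.

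Mir301, the Ska2 intron locus that gives miR-301a, had 17549 and 9386 counts, or 3445 and 3197 CPM, with a mean of 3321 ± 175 CPM (SD, n = 2). It ranked 53 and 54. Its share of the family was 7.39% in replicate 1 (interval 7.29 to 7.50) and 6.45% in replicate 2 (6.33 to 6.58), and was therefore the higher in replicate 1, opposite to Mir130b.

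Mir301b, the other locus of the chromosome 16 pair, was the least abundant member, with 1161 and 662 counts, or 228 and 225 CPM. The mean was 227 ± 1.72 CPM (SD, n = 2), and the ranks were 167 and 168. The SD of these 2 values is smaller than counting error, which by the exact Poisson interval put replicate 1 between 215 and 241 CPM and replicate 2 between 209 and 243 CPM. Mir301b held under 1% of the family, 0.489% and 0.455%.

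**Figure D1:**
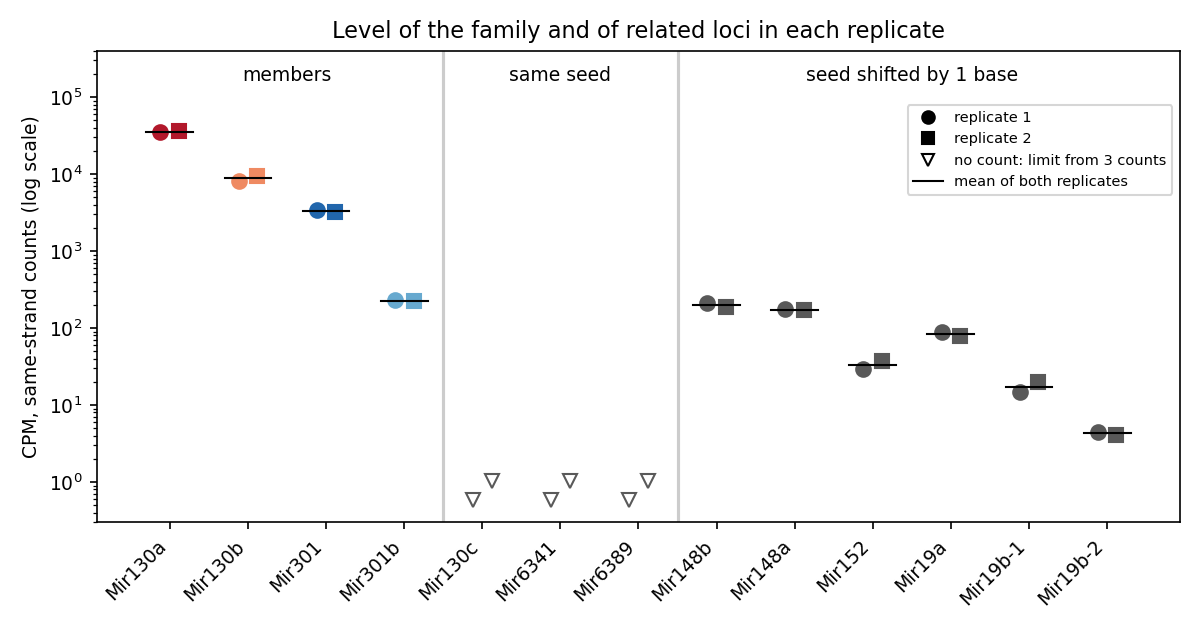
Level of each locus in CPM on a log axis, circles for replicate 1, squares for replicate 2 and a line at the mean. Open triangles mark the limit that 3 counts set for loci with no count. The 4 members span from 227 to 35718 CPM, 3 further loci with the same seed have no count, and the 6 loci with a shifted seed lie between 4.30 and 201 CPM.

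The order Mir130a, Mir130b, Mir301, Mir301b was the same in both replicates, and each step in it exceeded the spread. Mir130a stood 4.22-fold above Mir130b in replicate 1 and 3.90-fold in replicate 2. Mir130b stood 2.39-fold and 2.94-fold above Mir301, the smallest and least even of the steps, with a gap of 5494 CPM against an SD of at most 842 CPM. Mir301 stood 15.1-fold and 14.2-fold above Mir301b. A microRNA read covers the mature molecule in whole, so CPM does not grow with the hairpin's length. Divided by that length the order was the same, from 54250 and 57368 CPM per 100 bases of hairpin for Mir130a to 235 and 232 for Mir301b.

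The neighbours Mir130b and Mir301b, in the same intron and 257 bases apart, stood at very different levels. Mir130b exceeded Mir301b 36.1-fold in replicate 1 and 41.7-fold in replicate 2. The count of Mir301b has a limit, since a stretch of its hairpin differs from miR-301a-3p at 1 of 23 positions. The aligner is not stated, so whether reads of Mir301b were assigned to Mir301, or the reverse, is not known. Of the pair's counts, Mir301b held 2.70% (95% exact Clopper-Pearson interval 2.55 to 2.86) in replicate 1 and 2.34% (2.17 to 2.52) in replicate 2. The intervals do not overlap, so the ratio within the pair differed between the libraries by more than counting error. Summed over loci, Mir130a and Mir130b came to 42939 and 46126 CPM, against 3673 and 3423 CPM for Mir301 and Mir301b.

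**Figure D2:**
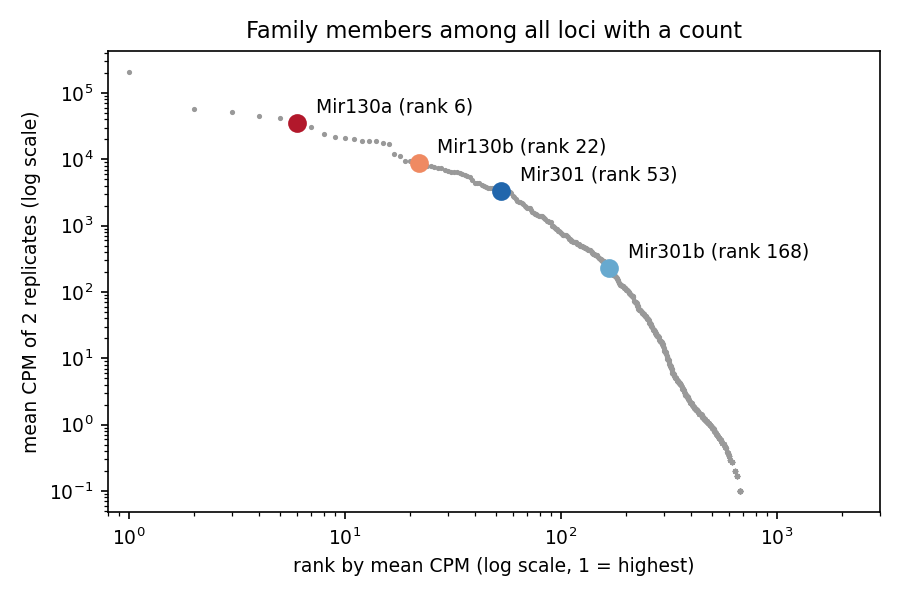
Mean CPM of the 2 replicates against rank for every locus with a count, both axes on a log scale. The members stand at ranks 6, 22, 53 and 168 of the 719 loci with a count.

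The loci next to each member in mean level give a scale for these values, with likeness measured as the difference in mean CPM over 2 samples. Mir130a fell between Mir17, of the proliferation-linked miR-17/92 cluster, at 41984 ± 6815 CPM, and Mir99b at 30915 ± 2025 CPM (SD, n = 2), and neither overlapped it in range. Mir130b lay between Mir92b (9214 ± 1094 CPM) and Mir369 (8590 ± 297 CPM). Mir301 lay between Mir98 and Mir381, at 3330 ± 688 and 3292 ± 264 CPM, and Mir301b between Mir383 and Mir700, at 232 ± 16.0 and 224 ± 29.9 CPM. The ranges of these 6 loci overlapped that of the member they flank, so their order is not resolved by 2 replicates.

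Other loci with the family's seed and a row in the tables gave no counts. In the RefSeq table, 7 of 1738 mature sequences have AGUGCAA at bases 2 to 8, and 4 of these come from loci outside the family. Those with a row are shown because they share not only the seed but the whole first 9 bases with the members:
miR-130c: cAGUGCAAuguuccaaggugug
miR-6341: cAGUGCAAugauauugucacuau
miR-6389: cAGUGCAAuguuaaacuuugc
Mir130c, Mir6341 and Mir6389 had 0 counts in both libraries, which allows up to 0.589 CPM in replicate 1 and 1.02 CPM in replicate 2. In Mir6341 and Mir6389 the heptamer lies 5′ of the hairpin's middle, whereas in Mir130c and the 4 members it lies 3′ of it. The fourth, Mir721, had no row under its symbol, so no level can be given for it. Its heptamer also lies 5′ of the hairpin's middle. Among the 4 members and Mir130c, Mir6341 and Mir6389, the members were thus the ones with counts. Apart from Mir301b, hairpins of loci without this seed in a mature sequence were not searched for the heptamer.

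MicroRNAs with the seed moved by 1 base share 6 of its 7 bases, and were far less abundant as counted. They are the miR-148 and miR-152 family, known in DNA methyltransferase repression, and miR-19, of the miR-17/92 cluster and its paralog:
miR-148a-3p: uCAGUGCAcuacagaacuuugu
miR-19a-3p: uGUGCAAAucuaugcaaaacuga
Mir148b stood at 213 and 189 CPM, Mir148a at 175 and 171 CPM and Mir152 at 29.3 and 37.5 CPM. These levels are below that of Mir301b, the lowest family member. Mir19a stood at 88.5 and 78.7 CPM. Mir19b-1 (14.9 and 19.8 CPM) and Mir19b-2 (4.52 and 4.09 CPM) share a run of 25 bases and the same 3p sequence, so their reads could map to both places and their locus counts are uncertain. The 6 loci summed to 525 and 501 CPM, against 46612 and 49548 CPM for the family. None of the 6 passed the test between the libraries, and their median log2 ratio was 0.017.

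The libraries were compared at each locus by an exact conditional binomial test with TMM-scaled library sizes (TMM is edgeR's scaling by a trimmed mean of log ratios) and Benjamini-Hochberg adjustment over 466 loci. The test knows counting error only, and takes in no spread between embryos. It called 38.0% of the tested loci, made up of 18.7% with the higher value in replicate 1 and 19.3% with it in replicate 2. With total counts as the only scaling, 61.9% of the calls were higher in replicate 1 in place of 49.2%, and the median log2 ratio of all tested loci was 0.063 in place of -0.0041.

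Of the 4 members, all tested, 2 were called, both higher in replicate 2. Ratios are of replicate 1 to replicate 2, and their median over the members was -0.099 on the log2 scale. Mir130b was 1.20-fold higher in replicate 2, with a log2 ratio of -0.26 (95% exact interval -0.28 to -0.24, adjusted p = 1.68e-118). Mir130a was 1.11-fold higher in replicate 2, with a log2 ratio of -0.15 (exact interval -0.16 to -0.14, adjusted p = 1.73e-151). These are small differences measured with many counts. Of the 91 loci at 1000 CPM or more, 87.9% were called, a larger share than over all tested loci.

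Mir301 did not pass, with a log2 ratio of 0.041 (exact interval 0.0048 to 0.077, adjusted p = 0.0666). It passed, higher in replicate 1, with DESeq2 size factors (adjusted p = 0.0346 by the exact test), with total counts only (2.28e-08), with the deeper library thinned (0.0136) and with a minimum of 50 counts. Mir301b did not pass either (log2 ratio -0.051, exact interval -0.19 to 0.089, adjusted p = 0.633), and its direction was opposite, at 0.015, with total counts only.

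**Figure D3:**
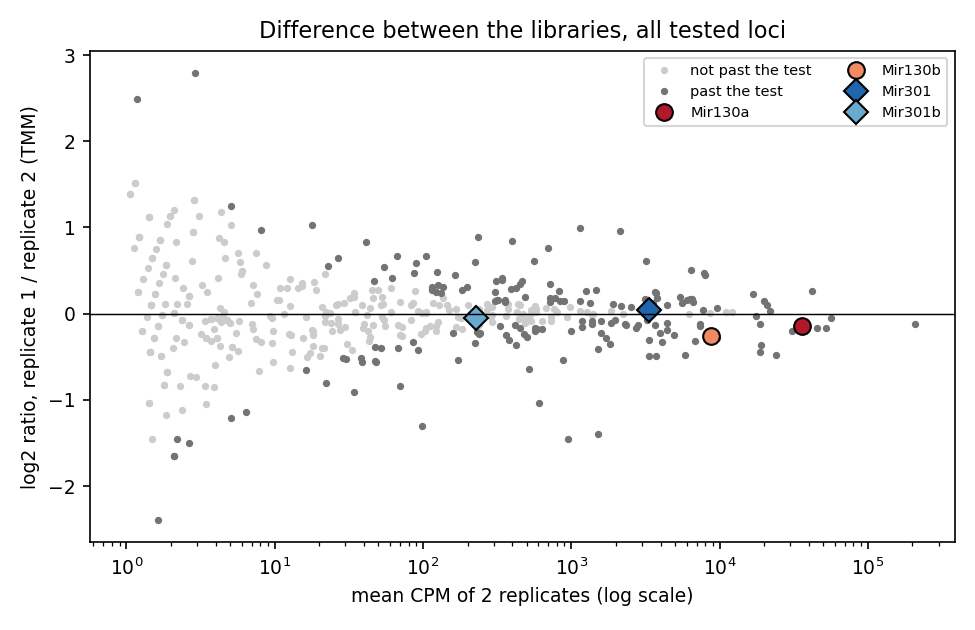
Log2 ratio of replicate 1 to replicate 2, TMM scaled, against mean CPM on a log axis for the 466 tested loci. Dark points passed the exact test. Coloured circles are the members that passed (Mir130a and Mir130b) and diamonds those that did not (Mir301 and Mir301b), and the 4 lie between -0.26 and 0.041.

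The size of each member's log2 ratio, whatever its direction, was set beside that of the other tested loci within 2-fold of its level. Mir130a, at 0.15, was exceeded by 8 of 12 such loci, and Mir130b, at 0.26, by 7 of 26. Mir301, at 0.041, was exceeded by 40 of 43, and Mir301b, at 0.051, by 60 of 69. With TMM scaling, Mir301 and Mir301b were thus among the loci with the smaller differences, and Mir130b was on the larger side. With total counts only, the log2 ratios of Mir130a, Mir130b, Mir301 and Mir301b were -0.081, -0.20, 0.11 and 0.015. The placement was not repeated with that scaling.

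**Figure D4:**
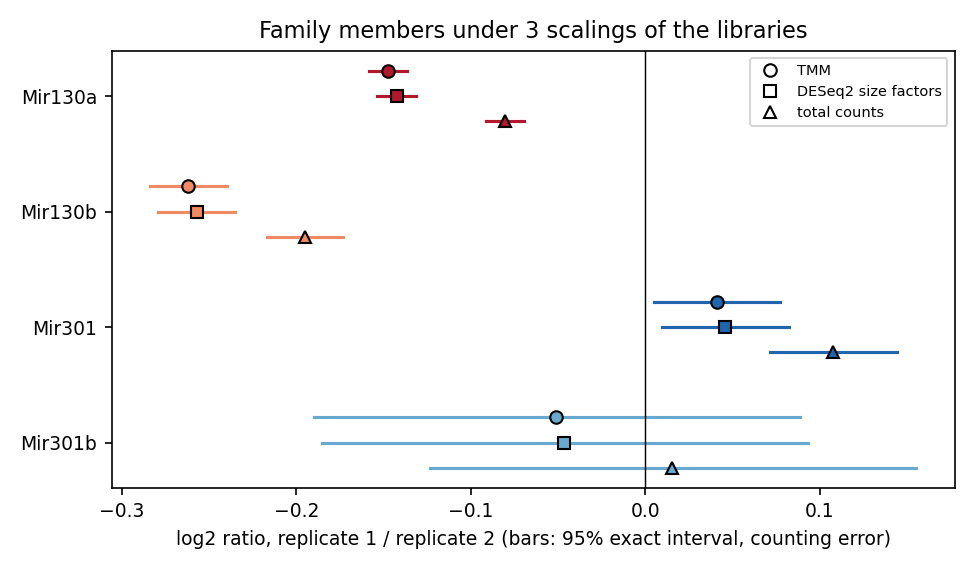
Log2 ratio of replicate 1 to replicate 2 for each member with 95% exact intervals for counting error, under TMM, DESeq2 size factors and total counts. Mir130a and Mir130b lie below 0 under all 3 scalings, Mir301 lies above 0 under all 3, and the intervals of Mir301b span 0.

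Some markers of other cell types were also higher in replicate 2. The endothelial locus Mir126a, which has a row while the other listed endothelial locus does not, held 1.63% of replicate 1 and 2.12% of replicate 2. Of 7 mural and mesenchymal loci listed, 6 had a row and counts, 0.539% and 0.707% in sum. Most of this sum came from Mir143 (4991 and 6626 CPM). Of 5 tested, 3 were called higher in replicate 2, against 19.3% of all tested loci. The 3 choroid plexus loci, all with counts, summed to 0.161% and 0.320%. Erythroid loci (3 of 3 with counts) summed to 0.0093% and 0.0087%, and leukocyte loci (3 of 6 with a row, all with counts) to 0.032% and 0.035%. Of 3 tested leukocyte loci, 1 (Mir223) was called higher in replicate 2. Mir150 and Mir155 had the higher CPM in replicate 1 and were not called. Calls in the other direction, higher in replicate 1, were made at 1 of 3 tested erythroid loci (Mir451a) and 1 of 10 tested neural loci (Mir137). Over all tested loci this share was 18.7%. The erythroid loci Mir144 (27.9 and 34.1 CPM) and Mir486 (11.8 and 13.3 CPM) lay higher in replicate 2 and were not called. Another neural locus, Mir92b, was called higher in replicate 2. None of the listed loci with a row was at 0. The part of these cells in the difference of Mir130a and Mir130b was not tested.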

How the data were processed

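Raw read counts per gene were deposited by the authors for each sample. The assembly was mm10 and the annotation M4, per the deposited notes. The aligner, trimming and filters behind these counts are not stated there. A table without header gives 3 counts per gene. The first equals the sum of the others in 3946 of 3946 rows, and the second was read as counts on the gene's strand, an inference from the values. Summary rows stayed out of library sizes: unmapped reads were 16.1% and 15.7%, multimapping reads 34.4% and 37.7% and reads outside genes 3.79% and 3.80%. Counts are per hairpin, so the arms were not told apart.

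Symbols and coordinates came from GENCODE M21 on the same assembly, by ID without version (1894 of 1973 matched; members had the same version). Mature and hairpin sequences came from RefSeq. Loci with 10 counts over both libraries were tested (scipy 1.17.1, edgeR 4.0.16 for TMM, R 4.3.3, Python 3.11.15), at an adjusted p under 0.05, with a pseudocount of 0.5 CPM in ratios. The test was checked on simulated counts that held counting error only, with the scaling taken from unchanged loci. That check cannot tell how the test behaves with spread between libraries or with TMM. A count of 0 was given a limit of 3 counts. Alternatives were total counts, size factors of DESeq2 1.42.0, other minimums and pseudocount, unstranded counts, thinning, other denominators and each replicate left out. Named loci were the members, loci with the family's seed, a list with shifted seeds, the loci next above and below each member in mean CPM and microRNAs within 10 kb. Members, lists and tests were chosen with earlier results of these data known.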

Additional observations from a re-analysis of the deposited data

Results flagged for a closer look

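Mir130a had 4 counts on the opposite strand in replicate 2, above the 3 counts that a count of 0 allows, and 1 in replicate 1. These were 0.0037% and 0.00057% of the counts at the locus, against 2.12% and 2.28% of the counts pooled over all loci. Of 1973 loci, 47 had any opposite-strand count in replicate 2 and 50 in replicate 1. The pooled percentage is therefore not that of a typical locus. The other 3 members had no opposite-strand counts.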

How the results depend on the processing

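The family's share of counts was 2.65% with multimapping reads added to the denominator only, in place of 4.81%. It was 6.08% with Mir99a, the most abundant locus, left out of the denominator. The family's share was 4.95% without replicate 1 and 4.66% without replicate 2. The share of Mir130a within the family was 74.3% with unstranded counts too, which add 1 and 4 counts to the locus. The number of members called was 2 or 3 in the 6 alternatives, with Mir130a and Mir130b among them in each and Mir301 the third. The log2 ratio of Mir301b turned from -0.051 to 0.015 with total counts only. That scaling moved the median log2 ratio of all tested loci from -0.0041 to 0.063. Depth limits the ratio of Mir301b, with 1161 and 662 counts, more than that of the other members. No paired analysis was possible because the series has 1 group.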
